A study of Homo sapiens with 26 samples.

Results

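Translational efficiency (TE) in cells that had received no compound was measured in 4 of the 26 libraries of the series, all from Huh7, an established line of human hepatoma cells. These are the vehicle libraries of the second ribosome profiling study, taken by their labels: ribo-seq replicates 4 and 5 and mRNA-seq replicates 4 and 5. Both assays of a replicate number came from the same sample. The vehicle was DMSO, given in fresh medium for 60 min, and cycloheximide, which holds elongating ribosomes on the mRNA, was present at the wash and in the lysis buffer. The other 4 libraries of the second study, from cells given 1.5 μM of the translation inhibitor PF-06446846 for 60 min, and the 3 vehicle ribo-seq libraries of the first study at 60 min serve here only as comparisons. The mRNA libraries were made from poly(A) RNA that was fragmented and size-selected like the footprints.

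A ribosome shields a short stretch of mRNA from nuclease, and each such stretch that is sequenced (a footprint) marks 1 ribosome. Dividing the footprints on a coding sequence (CDS) by the mRNA reads on the same CDS gives the TE, a measure of how densely ribosomes sit along the CDS of an mRNA, per length and not per copy. Cells set it mainly at initiation: upstream open reading frames (uORFs), hairpins such as the iron-responsive element, and the terminal oligopyrimidine (TOP) tract at the cap of ribosomal protein mRNAs are the best known control elements, and liver cells devote much of their translation to the plasma proteins they secrete.

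The deposited maps give the reads at each codon of 12325 transcripts, 1 isoform of most genes. Summed over whole coding sequences, the ribo-seq libraries held 13736874 and 8888459 reads and the mRNA-seq libraries 17929137 and 22036358. TE was fitted for the 11734 transcripts with enough reads, of which 9698 had a mean of at least 50 reads in each assay. It is given on a log2 scale relative to the centre of all transcripts, so 0 marks a transcript with as many footprints per mRNA read as most others, and a log2 TE of 1 a transcript with 2 times as many. Levels are in CPM, reads scaled to 1 common normalized library total, for a gene across libraries, and in RPKM, the same per kilobase of CDS, where genes are compared. Of 16 markers of hepatocytes and hepatoma cells, 14 were tested, with AFP at 1444 RPKM and APOA1 at 1706 RPKM of mRNA. ALB was not analysed here. No leukocyte marker of 3 was among the tested transcripts, the endothelial marker PECAM1 stood at 5.45 RPKM, and the fibroblast marker DCN had 18.8 RPKM of mRNA on an isoform of 89 codons and 0 footprints in both libraries. KRT19 and EPCAM, markers of bile duct cells, stood at 68.5 and 62.2 RPKM.

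TE differed widely between transcripts. At an FDR of 0.1 (quasi-likelihood test of edgeR, Benjamini-Hochberg adjusted p), 8755 of 11734 transcripts (74.6%) differed from the centre, 4307 with higher TE (36.7%) and 4448 with lower TE (37.9%). A stricter call, which also asks for a log2 TE of at least 1 in size, was met by 2088 transcripts with higher TE (17.8%) and 2574 with lower TE (21.9%), 39.7% together. All 8755 calls had the same direction in both replicate numbers, but they were made on these same libraries, so this is no independent support. Over all tested transcripts, called or not, 90.1% had the same sign in both. Since most transcripts pass the first test, a call by itself says little about a gene, and the size of the difference is given throughout.

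Among the 9698 transcripts with 50 reads or more in each assay, TE spanned 12.4-fold from the 5th to the 95th percentile and 2.70-fold across the middle 50%. Over the same percentiles mRNA RPKM spanned 90.3-fold. The SD of log2 TE between transcripts was 1.18, while the SD of the difference between the 2 replicate numbers was 0.344. Replicate 4 and replicate 5 ranked the transcripts alike, with a Spearman correlation of 0.951 across transcripts, which are not independent replicates. Footprint and mRNA RPKM correlated at 0.816 across the same transcripts. Over all 11734 tested transcripts TE spanned 20.3-fold from the 5th to the 95th percentile. There the SD of log2 TE was 1.48 and that of the replicate difference 0.589. With 2 libraries an assay an exact permutation test of a single gene cannot go below p = 0.333, so each test of a gene rests on the spread that edgeR shares between transcripts. The study's text calls its replicates biological. Whether those of number 4 and 5 were separate cultures is given neither there nor in the labels, and the p-values measure only the spread between these libraries.

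**Figure D1:**
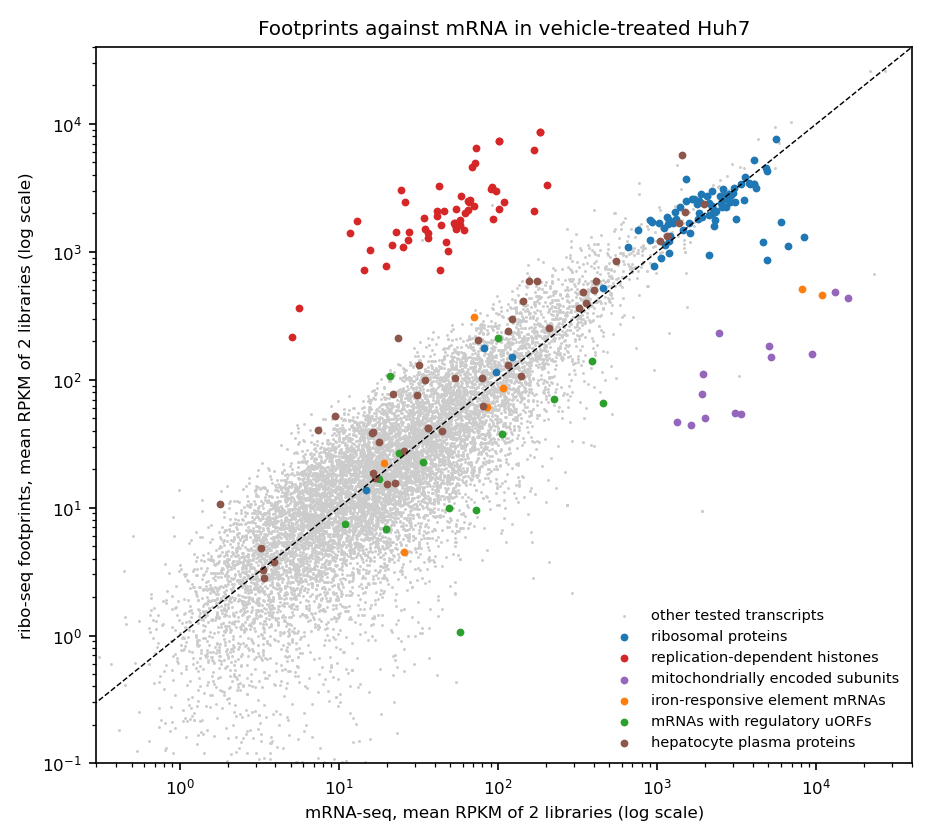
Mean footprint RPKM (y axis, log scale) against mean mRNA RPKM (x axis, log scale) of the 2 libraries of each assay, 1 point a transcript, with a dashed line where both are equal and 89 of 11734 transcripts outside the axes. Histone transcripts lie far above the line, mitochondrially encoded and ferritin transcripts far below it, and ribosomal protein transcripts lie along it at the upper end.

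Along the CDS both assays departed most from even coverage at the ends. The density of reads was set relative to the middle of each CDS over 3228 transcripts of at least 400 codons and 200 reads in every library. The last codon before the stop codon, where a ribosome is about to terminate, held 12.6 and 13.5 times the footprints of the middle, against 1.02 and 1.07 times in mRNA. Footprints on the start codon stood at 1.28 and 1.98 times the middle and fell to 0.474 and 0.580 over codons 6 to 10, where mRNA reads stood at 0.772 and 0.922. From codon 26 on footprints were back near the middle, at 0.927 and 0.990 over codons 26 to 50. Single codons further from the start also stood out: codon 77 held 1.31 and 1.38 times the mRNA reads of the middle in replicates 4 and 5, and codon 78 held 1.55 times the footprints in replicate 4 and 1.16 times in replicate 5. The first 50 codons held 13.2% and 14.3% of all footprints and 15.6% and 16.1% of all mRNA reads.

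**Figure D2:**
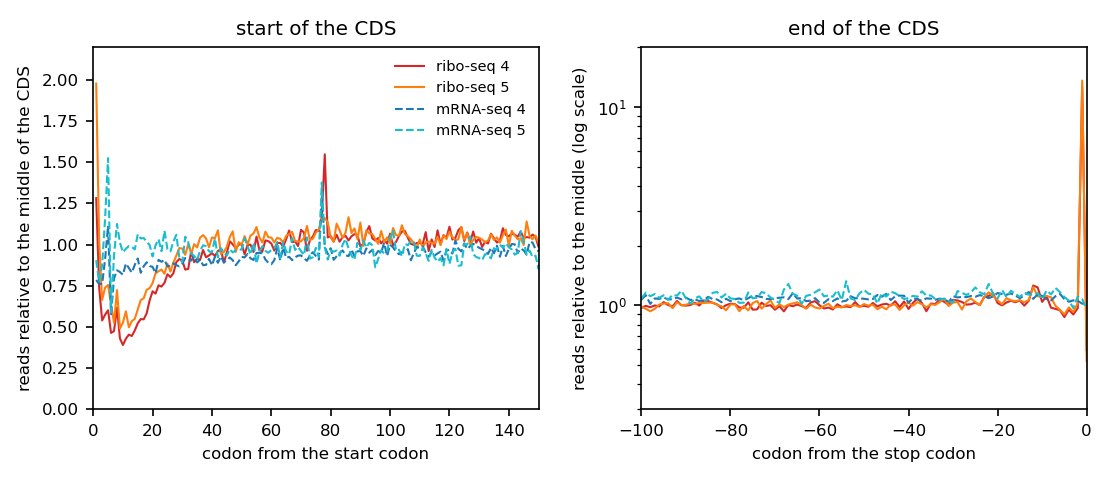
Mean reads per codon relative to the middle of the same CDS (y axis, linear on the left, log scale on the right) against the codon counted from the start codon (left) and from the stop codon (right), 1 line for each of the 4 vehicle libraries, over 3228 transcripts. Both ribo-seq lines dip after the start codon and peak on the last codon before the stop codon, and both mRNA-seq lines stay between 0.772 and 1.16 times the middle when averaged over the segments given in the text.

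The 30 gene lists spread from a median log2 TE of 5.28 for histones to -5.09 for mitochondrially encoded subunits, beside -0.03 for all transcripts tested. In 21 of 30 lists the median was above that of all transcripts. The lists outside those extremes lay between -1.58 for polyamine genes and 1.07 for the smaller TOP list. The stricter call for higher TE, met by 17.8% of all transcripts, was met by 54.5% of that TOP list, 36.2% of plasma proteins, 31.4% of proteasome subunits and 1.92% of large-subunit ribosomal proteins. That for lower TE, met by 21.9% of all, was met by 70% of polyamine genes, 57.1% of uORF mRNAs, 52.6% of selenoproteins and 0% of plasma proteins. Members called highest or lowest of a list are those among its members with a mean of 50 reads or more in each assay, unless said otherwise.

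**Figure D3:**
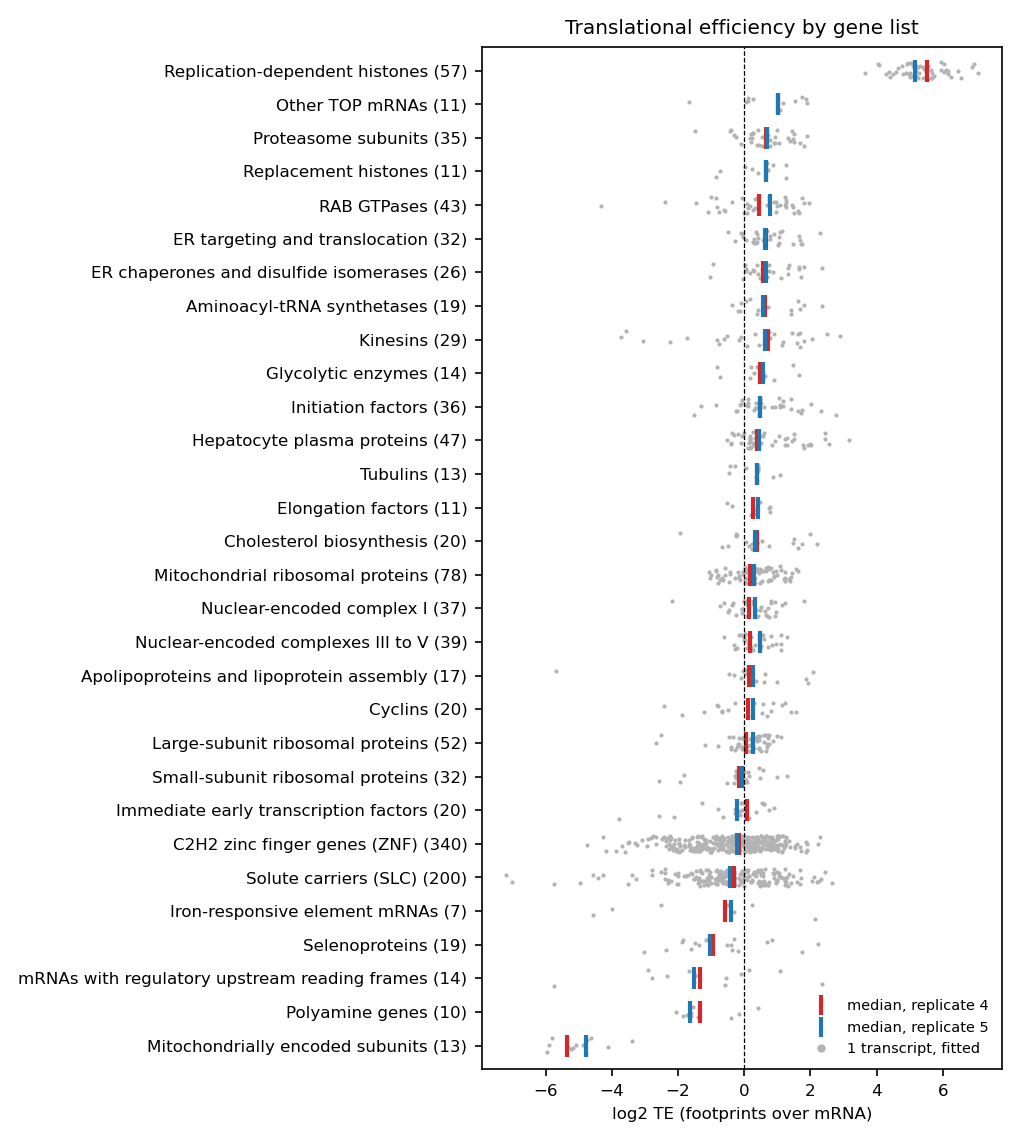
Log2 TE (x axis) of each tested member of the 30 gene lists (grey points, vertical jitter only for sight), with the list median in replicate 4 (red bar) and replicate 5 (blue bar) and the number of members tested in parentheses. Histones stand alone at the high end and mitochondrially encoded subunits alone at the low end. The gap between the 2 replicate medians varies with the list, from 0.67 and 0.67 in replacement histones through 0.16 and 0.48 in complexes III to V to -5.36 and -4.77 in mitochondrially encoded subunits.

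The side of a list median held more often than its size. Medians under another setting are given here and in what follows as distances from the median of all transcripts. By that measure 12 of 30 list medians were smaller and 3 larger by over 1.5 times, on the same side, relative to transcripts of like CDS GC content. With the 3 vehicle ribo-seq libraries of the first study over the same mRNA-seq libraries, 4 were smaller and 6 larger by that factor, and with at least 100 reads asked of every library 14 were smaller and 2 larger. With 100 reads the median was 0.09 for elongation factors (0.37 as fitted), 0.27 for initiation factors (0.50), 0.38 for tRNA synthetases (0.63), 0.30 for plasma proteins (0.48), 0.40 for ER chaperones (0.65), 0.42 for ER targeting genes (0.68), 0.35 for glycolytic enzymes (0.56) and -0.78 for uORF mRNAs (-1.46). Nearest to 0 there were complexes III to V at 0.04 (0.28), apolipoproteins at 0.05 (0.25), mitochondrial ribosomal proteins at 0.06 (0.30), complex I at 0.08 (0.29), cholesterol synthesis at 0.10 (0.34) and tubulins at 0.17 (0.42), while immediate early factors lay at -0.29 (-0.08) and the small subunit at -0.30 (-0.06). Without the CDS ends complex I lay at 0.54. Without mRNA-seq replicate 5 that of RAB GTPases was 0.43 (0.70) and that of cholesterol synthesis 0.53 (0.34), and without ribo-seq replicate 5 that of apolipoproteins 0.13 (0.25). That of complexes III to V was 0.43 without ribo-seq replicate 4 and 0.46 without mRNA-seq replicate 4 (0.28), and that of the large subunit 0.10 without mRNA-seq replicate 5 (0.21).

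Ribosomal protein mRNAs, the classic TOP mRNAs, were the most abundant group of the translation machinery and had a median TE close to that of the average transcript. For the large subunit, 25 of 52 had higher and 12 lower TE than the centre, 1 and 3 by the stricter call, and the list median was 0.18 (0.06 and 0.27 in replicates 4 and 5). The large-subunit list held 4.51% and 4.67% of footprints and 5.55% and 5.30% of mRNA reads. The small-subunit list held 2.77% and 2.94% of footprints and 4.28% and 4.26% of mRNA reads. For the small subunit, 5 of 32 had higher and 11 lower TE than the centre, 1 and 3 by the stricter call, with a median of -0.09 (-0.14 and -0.06). Relative to transcripts of like CDS GC content the large-subunit median was -0.06 and the small-subunit median -0.12, so the sign of the large-subunit list flips, as it does with at least 100 reads asked of every library (-0.04 from the median of all transcripts). By that filter the small-subunit median lay -0.30 from it, against -0.06 as fitted, and without ribo-seq replicate 4 it lay -0.00096 from it. The small-subunit list changes side, to 0.08, with the ribo-seq libraries of the first study.

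A few ribosomal protein mRNAs stood far below the others. RPLP1, an acidic protein of the ribosomal stalk, had 349 and 360.3 footprint CPM against 2109 and 2389 mRNA CPM (log2 TE -2.67, SE 0.10, adjusted p = 5.40e-08). RPLP0, which anchors that stalk, had 744 and 712 footprint CPM against 3954 and 4341 mRNA CPM (log2 TE -2.51, SE 0.09, adjusted p = 5.40e-08). RPS2, near the mRNA entry channel of the small subunit, had 943 and 1021 footprint CPM against 5581 and 6079 mRNA CPM (log2 TE -2.57, SE 0.09, adjusted p = 5.40e-08). In all 3, both mRNA values were over 5 times both footprint values, with no overlap. RPS12 (-1.95 ± 0.09, mean ± SE) was the next lowest of the small subunit. At the other end RPS24 had 1406 and 1571 footprint CPM against 650.5 and 575 mRNA CPM (log2 TE 1.28, SE 0.10, adjusted p = 3.37e-06), and RPL7 (0.98 ± 0.09) and the paralog RPL7L1 (1.11 ± 0.09) led the large subunit. The authors aligned reads to protein-coding transcripts and counted a read at each of a few equally good sites, so values of close coding copies are uncertain.

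The TOP tract, a C followed by pyrimidines at the first base of the mRNA, was read from the RefSeq starts (GRCh38.p14). A C followed by at least 4 C or T within 5 bases of the start was found, on the sense strand, in 32 of 42 large-subunit genes (76.2%) and 18 of 24 small-subunit genes (75%) that have a start in the table, against 2059 of 8925 tested genes (23.1%). These 6 starts are shown because all carry the tract while their TE ranges from the lowest to the highest of the TOP lists. Each runs from 10 bases before the start to the 20th base of the transcript, with the C and its pyrimidines in capitals.
RPLP1: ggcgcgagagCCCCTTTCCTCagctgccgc
RPLP0: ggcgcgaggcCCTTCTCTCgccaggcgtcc
RPS24: aatcgtggttCTCTTTTCCTCCTTggctgt
EEF2: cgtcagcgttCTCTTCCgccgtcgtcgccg
EEF1A1: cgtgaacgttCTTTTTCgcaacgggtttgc
NPM1: agcctgcgtcCTTTCCCTggtgtgattccg
They lie at chr15:69452808-69452837, plus strand (RPLP1), chr12:120201092-120201121, minus strand (RPLP0), chr10:78033853-78033882, plus strand (RPS24), chr19:3985444-3985473, minus strand (EEF2), chr6:73521013-73521042, minus strand (EEF1A1) and chr5:171387839-171387868, plus strand (NPM1). In each of the 6 the tract begins at the annotated first base. The median log2 TE of tested genes with the motif was -0.02 and of those without it 0.03, and within the large subunit 0.16 and 0.21. The order differed between the lists. Medians with and without it were 0.003 and 0.18 in the small subunit, 0.62 and 0.34 in elongation factors and 0.41 and 0.40 in plasma proteins. They were 0.45 and 0.17 in mitochondrial ribosomal proteins and 1.35 and 0.70 in proteasome subunits. Only 4 elongation factors and 6 proteasome subunits hold it. In the smaller TOP list 6 of 7 genes with a start hold it, with a median of 0.73. VIM, at 1.07, is the only gene there without it.

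Elongation factors, several of them TOP mRNAs, had TE moderately above the centre. Of this list 8 of 11 had higher and 2 lower TE than the centre, 0 and 0 by the stricter call (median 0.34). EEF1A1, which delivers aminoacyl-tRNA to the ribosome, had 13220 and 13070 footprint CPM against 7798 and 7458 mRNA CPM (log2 TE 0.79, SE 0.08, adjusted p = 2.09e-05). EEF2, the translocase, had 4339 and 4228 footprint CPM against 3145 and 3012 mRNA CPM (log2 TE 0.48, SE 0.08, adjusted p = 5.68e-04). In both, footprint CPM exceeded mRNA CPM in every library. EEF1E1 (0.75 ± 0.13) and EIF5A2 (0.77 ± 0.21) had values close to that of EEF1A1, EIF5A (0.34 ± 0.09) and EEF1B2 (0.37 ± 0.09) were closer to the centre, and EEF1G (-0.37 ± 0.08) and the selenocysteine factor EEFSEC (-0.51 ± 0.14) were below it. EEF2K, the kinase that inhibits EEF2, did not pass the test (0.21 ± 0.13, adjusted p = 0.177), though it did without mRNA-seq replicate 5 (0.00781). The 2 transcripts of EEF1D share 1 set of counts (0.27 ± 0.09, adjusted p = 0.134 without ribo-seq replicate 5) and are not separate evidence, which is also true of the 2 transcripts of EIF3F. In all, 558 tested transcripts had the same 4 counts as another. The median of this list was 0.14 relative to like GC and 0.72 with the ribo-seq libraries of the first study. With those libraries EEFSEC was not called (-0.17, adjusted p = 0.338), and with at least 100 reads in every library neither EIF5A (0.14, adjusted p = 0.189), EEF1B2 (0.17, 0.117) nor EEF1D (0.07, 0.468) was.

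The other TOP mRNAs had a higher median TE: 7 of 11 had higher and 1 lower TE than the centre, 6 and 1 by the stricter call (median 1.07). NPM1, a nucleolar chaperone of ribosome assembly, had 1514 and 1676 footprint CPM against 457 and 400.3 mRNA CPM (log2 TE 1.90, SE 0.10, adjusted p = 3.89e-07). HNRNPA1, a splicing regulator, had 2531 and 2661 footprint CPM against 736 and 685 mRNA CPM (log2 TE 1.87, SE 0.09, adjusted p = 1.93e-07). EIF3E (1.75 ± 0.11), the histone chaperone NAP1L1 (1.53 ± 0.09, on an isoform of 237 codons), EIF4B (1.18 ± 0.10) and VIM, vimentin (1.07 ± 0.12), were the other members past the stricter call. RACK1, a protein of the small subunit, was nearer the centre (0.28 ± 0.08), and TPT1 did not pass the test (0.05 ± 0.08, adjusted p = 0.625). PABPC1, the cytosolic poly(A)-binding protein, was low (-1.67 ± 0.24), on a deposited isoform of only 38 codons that does not hold the whole protein. Relative to like GC the median of the list was 0.60. RACK1 was not called with at least 100 reads in every library (0.07, adjusted p = 0.425), and TPT1 was called higher with the ribo-seq libraries of the first study (0.24, adjusted p = 0.0838) and lower with at least 100 reads in every library (-0.16, adjusted p = 0.0952).

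Initiation factors and tRNA synthetases had medians above the centre, smaller relative to like GC (0.21 and 0.39). Of the initiation factors, 23 of 36 had higher and 4 lower TE than the centre, 13 and 2 by the stricter call (median 0.48). EIF5B, which joins the subunits, had 250 and 246 footprint CPM against 49.1 and 23.4 mRNA CPM (log2 TE 2.78, SE 0.27, adjusted p = 1.40e-05), and EIF3A, the largest subunit of eIF3, had 729 and 758 footprint CPM against 174 and 121 mRNA CPM (log2 TE 2.34, SE 0.15, adjusted p = 1.31e-06). For both, the footprints of replicates 4 and 5 lay close together while mRNA was lower in replicate 5 than in 4. EIF4G2 (-1.31 ± 0.09) and EIF2D (-1.52 ± 0.13) were lowest. Of the aminoacyl-tRNA synthetases, which charge tRNAs, 14 of 19 had higher and 1 lower TE than the centre, 6 and 0 by the stricter call (median 0.60), led by EPRS1 (2.34 ± 0.13) and NARS1 (1.82 ± 0.09). VARS (-0.37 ± 0.08) was the only synthetase called lower. Mitochondrial ribosomal proteins, made in the cytosol for export to mitochondria, stood closer to the centre: 41 of 78 had higher and 17 lower TE than the centre, 12 and 2 by the stricter call (median 0.28), from MRPS12 (-1.05 ± 0.10) to MRPS9 (1.62 ± 0.21). With the ribo-seq libraries of the first study the median of initiation factors was 0.76.

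Of the 7 tested mRNAs of the iron-responsive list, 5 were called lower and 1 higher, 3 and 1 by the stricter call (median -0.48, and -0.17 relative to like GC), and the ferritins held some of the lowest values of abundant mRNAs. In iron-replete conditions the hairpin is free, and in iron-poor conditions iron regulatory proteins bind it, which blocks initiation when it lies in the 5′ untranslated region (UTR) and protects the mRNA when it lies in the 3′ UTR. FTL, the ferritin light chain (ENST00000331825), had 230.4 and 254 footprint CPM against 5857 and 5659 mRNA CPM (log2 TE -4.57, SE 0.10, adjusted p = 7.05e-09). FTH1, the heavy chain (ENST00000620041), had 260.1 and 301 footprint CPM against 4657 and 4299 mRNA CPM (log2 TE -4.0, SE 0.11, adjusted p = 1.48e-08). Both ferritin mRNAs thus had few footprints for their mRNA reads, a TE of 0.0420 and 0.0626 where the centre is 1, and no footprint value overlapped an mRNA value. SLC40A1, ferroportin, the iron exporter, had 7.46 and 8.03 footprint CPM against 36.7 and 51 mRNA CPM (log2 TE -2.51, SE 0.20, adjusted p = 4.13e-06).

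Other members were nearer the centre or above it. EPAS1, a hypoxia-inducible transcription factor with a 5′ element, was called lower by a small amount (-0.31 ± 0.09). TFRC, the transferrin receptor, whose elements lie in the 3′ UTR, had 626 and 646 footprint CPM against 143 and 148 mRNA CPM (log2 TE 2.13, SE 0.09, adjusted p = 8.33e-08), the highest of the list. SLC11A2, the iron importer, also with a 3′ element in some isoforms, did not pass the test (0.22 ± 0.15, adjusted p = 0.217), though it did without mRNA-seq replicate 5 (0.00598) and with the ribo-seq libraries of the first study (0.65, adjusted p = 0.0024). As a list, the 7 iron-responsive mRNAs held 0.145% and 0.152% of footprints and 1.18% and 1.14% of mRNA reads in replicates 4 and 5.

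The element itself was located in the annotated 5′ UTRs (GENCODE 44, GRCh38). Its loop reads CAGTGN, with an unpaired C 6 bases before it. These windows of 30 bases are shown because the 4 mRNAs share the loop while their TE differs, with the 6 loop bases in capitals.
FTL: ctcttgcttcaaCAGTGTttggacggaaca
FTH1: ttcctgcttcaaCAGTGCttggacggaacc
SLC40A1: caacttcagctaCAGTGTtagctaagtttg
EPAS1: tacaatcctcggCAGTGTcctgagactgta
They lie at chr19:48965335-48965364, plus strand (FTL), chr11:61967573-61967602, minus strand (FTH1), chr2:189580660-189580689, minus strand (SLC40A1) and chr2:46297479-46297508, plus strand (EPAS1), with the loop beginning at base 39, 42, 110 and 85 of the UTR. The letters alone are common: CAGTGN occurred on the transcript strand in 18.0% of 10091 annotated 5′ UTRs of tested transcripts, and the loop with a C 6 bases before it in 6.15%, with a median log2 TE of -0.10 in the latter.

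mRNAs whose uORFs control the main frame were mostly low. Of 14 tested, 10 were called lower and 2 higher, 8 and 2 by the stricter call (median -1.48). ATF4, the main transcription factor of the integrated stress response, had 64.7 and 75.3 footprint CPM against 469 and 493 mRNA CPM (log2 TE -2.79, SE 0.10, adjusted p = 6.05e-08). PPP1R15A, the stress-induced subunit of the phosphatase that reverses that response, had 18.7 and 20.3 footprint CPM against 165 and 129.6 mRNA CPM (log2 TE -2.92, SE 0.14, adjusted p = 2.65e-07). No footprint value of either gene overlapped an mRNA value, and their TE was 0.145 and 0.132 where the centre is 1. SLC35A4, whose mRNA holds an upstream frame that is itself translated, had 13 and 9 footprints in its main frame beside 978 and 1431 mRNA reads (log2 TE -5.76, SE 0.22, adjusted p = 6.05e-08).

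ATF5 (-2.32 ± 0.15), the stress-induced pseudokinase TRIB3 (-1.66 ± 0.10), DDIT3, which encodes CHOP (-1.53 ± 0.27), CEBPB (-1.49 ± 0.11) and CEBPA (-1.48 ± 0.13) followed. IFRD1 (-0.57 ± 0.13) and IBTK (-0.56 ± 0.19) were called lower by smaller amounts, and PPP1R15B (0.15 ± 0.13, called higher without mRNA-seq replicate 5 at an adjusted p of 0.0471) and MDM2 (-0.09 ± 0.14) did not pass the test. The members called higher were EPRS1, named above, and EIF5 (1.08 ± 0.11), the latter on an isoform of 146 codons. With the first 50 and last 10 codons left out EIF5 had an adjusted p of 0.138, and without ribo-seq replicate 4 IBTK had one of 0.170. IFRD1 was not called with the ribo-seq libraries of the first study (-0.19, adjusted p = 0.229). MDM2 was called lower with at least 100 reads in every library (-0.30, adjusted p = 0.0858), and 5 members then met the stricter call for lower TE.

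Polyamine genes, some of which respond to polyamine levels through uORFs or frameshifting, formed the list with the lowest median after the mitochondrially encoded one. Of 10 tested, 8 were called lower, 7 by the stricter call, and 1 higher (median -1.58, -1.34 and -1.64 by replicate). OAZ1, antizyme, which marks ornithine decarboxylase for degradation and needs a ribosomal frameshift, had 252 and 255 footprint CPM against 1073 and 1035 mRNA CPM (log2 TE -2.06, SE 0.08, adjusted p = 9.11e-08). ODC1, ornithine decarboxylase itself, had 222 and 237 footprint CPM against 694 and 642 mRNA CPM (log2 TE -1.54, SE 0.09, adjusted p = 6.41e-07). The catabolic enzymes SAT1 (-1.86 ± 0.10) and SMOX (-1.74 ± 0.11), spermidine synthase SRM (-1.39 ± 0.10) and OAZ2 (-1.61 ± 0.17, on a deposited isoform of only 61 codons) were about as low. OAZ3 had 16 and 3 footprints, and its call was lost without ribo-seq replicate 5 (adjusted p = 0.171). AZIN1, an inhibitor of antizyme, was nearer the centre (-0.40 ± 0.14), AMD1 did not pass the test (-0.17 ± 0.12, adjusted p = 0.250), and spermine synthase SMS was the one called higher (0.42 ± 0.11). The call of AZIN1 was lost without ribo-seq replicate 5 (adjusted p = 0.335) and that of SMS without ribo-seq replicate 4 (adjusted p = 0.126). Neither was called with the ribo-seq libraries of the first study (adjusted p = 0.173 and 0.127), SMS was not with at least 100 reads in every library (0.112), and AMD1 was called lower there (-0.37, adjusted p = 0.0262).

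Selenoproteins, which read a UGA codon as selenocysteine, were low in 13 of 19, 10 by the stricter call, and high in 4 (median -1.07). With the ribo-seq libraries of the first study 6 met the stricter call for lower TE and the median was -0.45, and relative to like GC it was -0.51. GPX1, the main cellular glutathione peroxidase, had 75 and 69.3 footprint CPM against 550.1 and 616 mRNA CPM (log2 TE -3.01, SE 0.10, adjusted p = 4.22e-08). GPX4, the peroxidase of membrane lipids, had 124 and 112 footprint CPM against 664 and 560.0 mRNA CPM (log2 TE -2.37, SE 0.11, adjusted p = 1.94e-07). Both held mRNA CPM over 4 times their footprint CPM in every library. SELENOI (2.23 ± 0.11), an enzyme of phospholipid synthesis, and SELENOF (1.75 ± 0.11), a protein of the ER, were the members with the highest values.

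The plasma proteins of the liver were mostly at or above the centre. Of 47 tested, 29 were called higher and 4 lower, 17 and 0 by the stricter call (median 0.45), and they held 3.13% and 3.29% of footprints and 1.81% and 1.97% of mRNA reads. AFP, the fetal albumin homolog that marks hepatoma, had 10480 and 10730 footprint CPM against 2656 and 2740 mRNA CPM (log2 TE 1.98, SE 0.08, adjusted p = 1.02e-07). TFPI, an inhibitor of coagulation, had 183 and 202 footprint CPM against 23.5 and 19.8 mRNA CPM (log2 TE 3.16, SE 0.12, adjusted p = 6.79e-08). For both, each footprint value was over 3 times each mRNA value. The fibrinogen chains FGB (1.92 ± 0.10), FGG (1.46 ± 0.12) and FGA (1.30 ± 0.09) all passed the stricter call, as did CP, ceruloplasmin (2.56 ± 0.17), and GPC3 (1.06 ± 0.10), a hepatoma marker. SERPINA1 (0.45 ± 0.10), TF, transferrin (0.60 ± 0.14), and TTR, transthyretin (0.33 ± 0.08), were above the centre by less. The lowest were F12 (-0.53 ± 0.16) and MST1 (-0.40 ± 0.14), the latter not called without ribo-seq replicate 4 (adjusted p = 0.195) or mRNA-seq replicate 5 (0.112), and AHSG did not pass the test (0.38 ± 0.24, adjusted p = 0.194), though it did with the replicate number as a block (adjusted p = 0.0024), without ribo-seq replicate 4 (0.00439) and without mRNA-seq replicate 5 (2.24e-12). With the ribo-seq libraries of the first study the median of the list was 0.99, F12 (-0.24, adjusted p = 0.201) and MST1 (-0.16, 0.436) were not called and AHSG was (2.15, 7.44e-06). TTR was not called with at least 100 reads in every library (0.13, adjusted p = 0.180).

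Apolipoproteins and the lipoprotein assembly genes were mostly at or above the centre. Of 17 tested, 9 were called higher (52.9%) and 2 lower (11.8%), beside 36.7% and 37.9% of all transcripts tested. By the stricter call these were 3 and 1, with a median of 0.22 and a lowest value of -5.70. APOB, the structural protein of low-density lipoproteins and with 4564 codons one of the longest frames, had 5108 and 5639 footprint CPM against 1388 and 1160 mRNA CPM (log2 TE 2.08, SE 0.11, adjusted p = 3.66e-07). SAR1B, the GTPase of the vesicles that carry lipoproteins out of the ER, was about as high (1.93 ± 0.15). APOA1, the main protein of high-density lipoproteins, did not pass the test (-0.10 ± 0.11, adjusted p = 0.427), and APOA2 was close to the centre (0.27 ± 0.12), with an adjusted p of 0.612 without ribo-seq replicate 5. APOA1 was called lower without mRNA-seq replicate 4 (adjusted p = 0.0426), without the CDS ends (0.0829) and with at least 100 reads in every library (0.0326), where APOA2 was not called (0.652). In cholesterol synthesis, 11 of 20 had higher and 4 lower TE than the centre, 6 and 1 by the stricter call (median 0.32). HMGCS1, the synthase at the head of the mevalonate pathway, had 621 and 784 footprint CPM against 136 and 172 mRNA CPM (log2 TE 2.19, SE 0.14, adjusted p = 1.19e-06). Both its mRNA and its footprints were higher in replicate 5 than in replicate 4. MVK (-0.68 ± 0.17) and TM7SF2 (-1.94 ± 0.21) were the lowest of the pathway. With the ribo-seq libraries of the first study the median of the cholesterol list was 0.92.

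The machinery that takes secreted proteins into the ER also had medians above the centre. Of its targeting and translocation genes, 25 of 32 had higher and 2 lower TE than the centre, 11 and 0 by the stricter call (median 0.65, and 0.25 relative to like GC), from SRPRA (-0.48 ± 0.09), a subunit of the signal recognition particle receptor, to SRP54 (2.30 ± 0.13), the subunit of the particle that binds signal peptides. Of the ER chaperones and disulfide isomerases, 19 of 26 had higher and 2 lower TE than the centre, 9 and 1 by the stricter call (median 0.62). HSP90B1, the ER form of HSP90, had 1864 and 1936 footprint CPM against 424 and 321 mRNA CPM (log2 TE 2.35, SE 0.13, adjusted p = 4.93e-07), and DNAJC3, a co-chaperone, was next (1.80 ± 0.13). SDF2L1 (-1.03 ± 0.14) and CRELD2 (-0.93 ± 0.11), both small ER proteins, were lowest. SRPRA was not called with the ribo-seq libraries of the first study (-0.18, adjusted p = 0.203).

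The respiratory chain showed the widest split, by the genome that encodes it. The 13 mitochondrially encoded subunits all met the stricter call for lower TE, with log2 TE from -5.97 to -3.40 (median -5.09). They held 0.157% and 0.220% of footprints and 6.89% and 6.62% of mRNA reads. MT-CO2, a core subunit of cytochrome oxidase, had 94.2 and 122 footprint CPM against 6485 and 6306 mRNA CPM (log2 TE -5.89, SE 0.14, adjusted p = 9.29e-09). MT-CO1, the catalytic subunit, had 585 and 912 footprint CPM against 19310 and 20950 mRNA CPM (log2 TE -4.75, SE 0.20, adjusted p = 1.02e-07). In each of the 4 libraries of both genes mRNA exceeded footprints by more than 20 times. MT-ND4 was lowest (-5.97 ± 0.20) and MT-ATP8 least low (-3.40 ± 0.15). These mRNAs are read by mitochondrial ribosomes, which differ from those of the cytosol, and how well their footprints were captured was not tested.

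Subunits of the same complexes made in the cytosol were near or above the centre. Of complex I, 19 of 37 had higher and 8 lower TE than the centre, 3 and 1 by the stricter call (median 0.26), and of complexes III to V, 20 of 39 had higher and 4 lower TE than the centre, 4 and 0 by the stricter call (median 0.26, and 0.16 relative to like GC). NDUFA5 (1.81 ± 0.15) and NDUFS1 (1.24 ± 0.11) led complex I, and UQCRB (1.30 ± 0.10) and ATP5PB (1.13 ± 0.09) the others, while NDUFS8 (-0.74 ± 0.10) and CYC1 (-0.62 ± 0.08) were among the lowest. Glycolytic enzymes were above the centre in 12 of 14 (median 0.54), with HK2, which phosphorylates glucose (1.66 ± 0.11), and LDHA, lactate dehydrogenase (1.47 ± 0.12), highest. PFKL was lower (-0.75 ± 0.09), though not called with the ribo-seq libraries of the first study (-0.15, adjusted p = 0.362). Proteasome subunits, which degrade tagged proteins, had a median of 0.70, and 0.37 relative to like GC: 29 of 35 were called higher and 5 lower, led by PSMC6 (1.90 ± 0.10) and PSMD14 (1.82 ± 0.09). PSMB10, a subunit of the immunoproteasome, was the exception by the stricter call (-1.49 ± 0.18, on an isoform of 139 codons). Tubulins, whose mRNAs are degraded when free tubulin rises, were called higher in 9 of 13 (median 0.40, and 0.84 relative to like GC).

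Replication-dependent histones had the highest ratios of all. All 57 tested transcripts met the stricter call for higher TE, with folds from 12.5 to 135 (median 39). They held 5.10% and 5.33% of footprints and 0.115% and 0.170% of mRNA reads. H1-5, a linker histone, had 1178 and 1213 footprint CPM against 8.02 and 9.60 mRNA CPM (log2 TE 7.08, SE 0.13, adjusted p = 5.84e-09). H4C4, a core histone H4, had 429 and 447 footprint CPM against 3.11 and 4.18 mRNA CPM (log2 TE 6.89, SE 0.14, adjusted p = 7.05e-09). The lowest member was H4C3 (3.64 ± 0.11). These mRNAs end in a stem loop and lack the poly(A) tail on which the mRNA libraries were selected, so the denominator counts only the part of them that was captured, and the values are not a measure of ribosome load. In bulk libraries more cells in S phase and more footprints in each such cell cannot be told apart. Many histone copies are near-identical, and H3C14 and H3C15 share 1 set of counts. Replacement histones, listed as variants made from poly(A) mRNAs, had a median log2 TE of 0.69, from MACROH2A2 (-0.86 ± 0.21) to H2AX and H2AJ (both 1.26). How much of the mRNA of each was captured by the poly(A) selection was not tested. The median of this list was 0.40 without the CDS ends and 0.44 with the ribo-seq libraries of the first study.

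Among regulatory families the medians lay near or under the centre and the members spread widely. Over all transcripts tested, 36.7% had higher and 37.9% lower TE than the centre, 17.8% and 21.9% by the stricter call. For the C2H2 zinc finger genes, 72 of 340 had higher (21.2%) and 129 lower TE (37.9%), with a median of -0.15. The stricter call was met by 31 (9.12%) and 95 (27.9%). Their share called lower was thus that of all transcripts, while fewer were called higher and 139 were not called. ZNF326 (2.28 ± 0.17) was highest and ZNF358 (-4.18 ± 0.14) lowest of those with 50 reads or more. Relative to like GC the median of this list was -0.48, and with the ribo-seq libraries of the first study it was -0.20 from that of all transcripts. It was -0.06 without ribo-seq replicate 4 and -0.20 without mRNA-seq replicate 5, against -0.12 over all 4 libraries. When 100 reads were asked of each library, the median of this list moved to above that of all transcripts. For the solute carriers, the transporters of the plasma membrane and organelles, 56 of 200 had higher and 95 lower TE than the centre, 27 and 59 by the stricter call (median -0.36), with the cystine importer SLC7A11 (2.64 ± 0.21) highest and SLC29A4 (-3.51 ± 0.13) lowest of those with 50 reads or more. The median of the carriers was -0.06 relative to like GC and -0.10 with the ribo-seq libraries of the first study. Immediate early transcription factors, the first genes switched on by growth signals, were called higher in 6 and lower in 6 of 20, 0 and 4 by the stricter call (median -0.10). JUND (49.4 and 48.5 footprint CPM against 257 and 332 mRNA CPM, log2 TE -2.59, SE 0.13, adjusted p = 3.20e-07) and SRF (-2.12 ± 0.14) were lowest and KLF10 (0.90 ± 0.13) highest of those with 50 reads or more. The direction of this list turns with 1 library left out: its median was 0.10 without ribo-seq replicate 4 and 0.12 without mRNA-seq replicate 5, -0.16 without ribo-seq replicate 5 and -0.23 without mRNA-seq replicate 4, against -0.08 over all 4. With the ribo-seq libraries of the first study it was -0.36. This list has the most GC-rich coding sequences, at a median of 64.4%, and relative to transcripts of like GC its median was 0.69, so the direction of the list flips.

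RAB GTPases, which direct vesicle traffic, had higher TE in 23 and lower in 10 of 43 (median 0.68, and 0.37 relative to like GC), led by RAB8B (1.95 ± 0.17) and RAB6A (1.81 ± 0.14). Kinesins, the motors of microtubules, ranged among those with 50 reads or more from the mitotic KIF11 (2.06 ± 0.11) and KIF23 (1.81 ± 0.11) to KIF1C (-3.73 ± 0.10) and KIF21B (-2.24 ± 0.17). KIF1C had 43.9 and 41.1 footprint CPM against 571 and 561 mRNA CPM, with both mRNA values over 10 times both footprint values. The kinesin median was 0.59, 0.28 relative to like GC and 0.36 with the ribo-seq libraries of the first study. Cyclins were called higher in 10 and lower in 9 of 20, 50% and 45% beside 36.7% and 37.9% of all transcripts tested. Their median was 0.20, 0.04 without the CDS ends and -0.21 relative to like GC. Of those with 50 reads or more, CCNH (1.58 ± 0.18) was highest and CCNYL1 (-1.89 ± 0.33) lowest.

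Outside the lists of histones and mitochondrial genes the extremes were mostly single genes. The highest were H2BC12L, itself an H2B histone gene that the list missed (4.65 ± 0.13), the unnamed gene ENSG00000282988 (5.21 ± 0.19) and TFPI. After them came, among others, the DNA helicase RECQL, with 85.6 and 88.3 footprint CPM against 10.6 and 10.8 mRNA CPM (log2 TE 3.02, SE 0.12, adjusted p = 7.23e-08), TPR of the nuclear pore (2.96 ± 0.20) and the endosomal tether EEA1 (2.84 ± 0.24). The lowest with 50 reads or more in each assay was LRP3, a member of the LDL receptor family, with 8.77 and 8.75 footprint CPM against 412 and 554 mRNA CPM (log2 TE -5.79, SE 0.17, adjusted p = 2.17e-08). Other low genes by the same limit were FTL, described above, TRIM67 (-4.89 ± 0.23), B4GALT2 (-4.68 ± 0.16), IRAK1, a kinase of interleukin-1 signalling (-4.19 ± 0.12), and PGAP6 (-4.11 ± 0.10). Each footprint value of LRP3 was under each of its mRNA values by more than 20 times.

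The mRNAs with the highest RPKM were not those with the highest TE. Of the 10 transcripts with the highest mRNA RPKM, 3 unnamed ones have only 25 codons, of which ENST00000600213 had 52.8 and 47.2 footprint CPM against 1826 and 1654 mRNA CPM (log2 TE -5.12, SE 0.11, adjusted p = 7.05e-09). ACTB, cytoplasmic actin, had 12290 and 11150 footprint CPM against 7981 and 7704 mRNA CPM (log2 TE 0.58, SE 0.09, adjusted p = 2.46e-04) on a CDS of 376 codons. The other 6 of these 10 were FTL, FTH1, RPLP1, MT-CO1, MT-CO2 and MT-CO3, all with log2 TE under -2.

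The relation of CDS length to TE was small and moved with the setting. The median log2 TE was -0.03 under 100 codons (n = 591), 0.04 from 100 to under 200 (n = 1874), -0.04 from 200 to under 400 (n = 3367), -0.05 from 400 to under 800 (n = 3902), -0.07 from 800 to under 1600 (n = 1607) and 0.04 from 1600 on (n = 393). The stricter call for higher TE was met by 13% of the shortest group and by 16.0% to 19.3% of the other groups. The direction differed with abundance. In the tertile of transcripts with the highest mRNA RPKM the median was 0.14 from 100 to under 200 codons (n = 938) and -0.38 from 800 to under 1600 (n = 285), while in the lowest tertile it was -0.05 (n = 432) and 0.19 (n = 739). Abundance and TE share the mRNA libraries, and how much of these slopes comes from shared counting noise was not tested. With the first 50 and last 10 codons left out, the median of the 312 transcripts under 100 codons that could still be tested was 0.21. Relative to transcripts of like GC, the difference between the longest group and that from 100 to under 200 codons moved from -0.01 to -0.23, and with the ribo-seq libraries of the first study it was -0.29.

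Over all tested transcripts, the median log2 TE of the highest minus the lowest decile of mRNA abundance was 0.14. Over those with 50 reads or more it was -0.56, but that set asks for footprints as well as mRNA reads. A scarce mRNA is thus kept there more readily when its TE is high, so this value cannot show a relation of abundance to TE. The filter on all tested transcripts also lets a scarce mRNA in by its footprints alone, and the lowest decile begins at 0 RPKM of mRNA. How far that selection moves the lowest decile and the 0.14 was not tested. The first value averages 2 splits of unlike sign, 0.34 without ribo-seq replicate 4 and -0.06 without ribo-seq replicate 5. With the ribo-seq libraries of the first study it was 0.38. To keep counting noise apart, deciles of abundance were taken from 1 mRNA-seq replicate and TE from the other replicate number. With abundance from replicate 4, the median log2 TE was -0.18 in the lowest decile, 0.12 in the second, -0.20 in the ninth and 0.16 in the highest decile (143 RPKM and over). With abundance from replicate 5 it was 0.11, 0.14, -0.18 and 0.04 in the same deciles. The lowest decile thus differed in sign between the 2 splits. In both, the medians were negative from the sixth to the ninth decile and positive in the highest. Spearman correlations across transcripts were -0.02 and -0.05 in the 2 splits. They were -0.19 and -0.22 over the transcripts with 50 reads or more, where the limit on footprints favours high TE among scarce mRNAs.

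**Figure D4:**
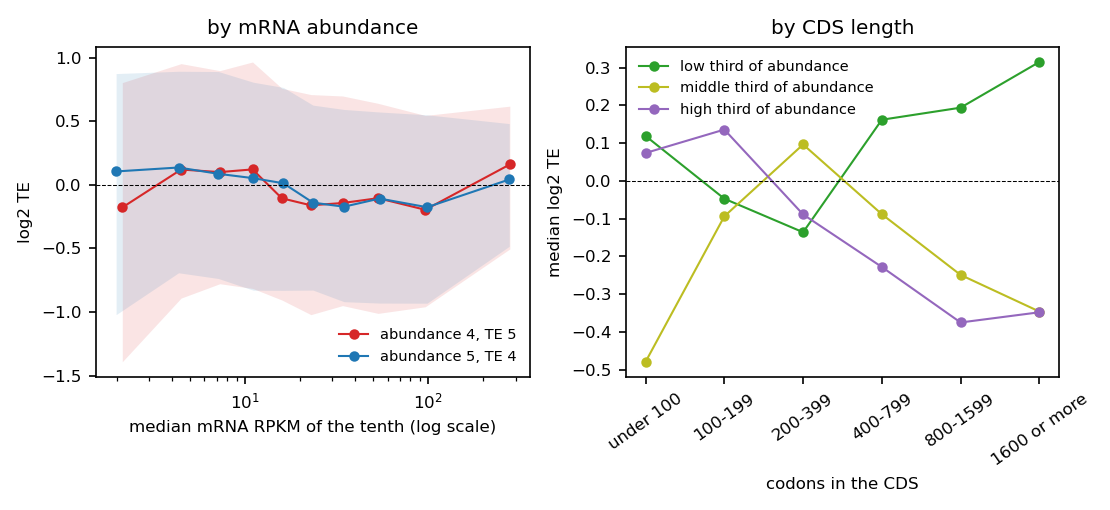
Left, median log2 TE (points, with the 25th to 75th percentile shaded) in deciles of mRNA abundance against the median RPKM of the decile (log scale), with abundance and TE taken from different replicates in both ways. Right, median log2 TE in 6 groups of CDS length within tertiles of mRNA abundance. The medians on the left stay between -0.20 and 0.16, and on the right long coding sequences lie at -0.35 in the high tertile and at 0.32 in the low tertile.

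CDS GC content, which none of the lists used, was the transcript feature that moved most with TE. GC content was known for 10468 of the tested transcripts (89.2%), those whose deposited CDS matches GENCODE in length. From the lowest to the highest quintile of GC the median log2 TE was 0.98, 0.55, 0.06, -0.40 and -0.99. The stricter call for higher TE was met by 48.9% of the lowest quintile and 1.91% of the highest, and that for lower TE by 3.82% and 49.2%. Replicate 4 gave 0.90 and -0.89 in the outer quintiles and replicate 5 gave 1.07 and -1.08, so the slope was steeper in replicate 5. Across transcripts the Spearman correlation of GC and log2 TE was -0.609. The 2 mRNA-seq libraries also differed with GC: replicate 4 minus replicate 5 had a median of 0.17 in the lowest quintile and -0.14 in the highest (Spearman -0.320), while the 2 ribo-seq libraries did not (0.005). How much of the slope lies in the mRNA libraries was not tested. The footprints and mRNA reads of each gene share its sequence, so a GC effect in preparing either library and one in translation cannot be told apart.

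5′ UTRs with an upstream ATG triplet went with lower TE in every quintile of GC. Upstream ATG triplets were counted in the annotated 5′ UTR of 10078 transcripts (85.9%). The median log2 TE was 0.21 with none (n = 5908), -0.15 with 1 (n = 1911), -0.42 with 2 (n = 919), -0.33 with 3 to 5 (n = 931) and -0.54 with 6 or more (n = 409). In the lowest quintile of GC the median was 1.26 without and 0.67 with an upstream ATG, and in the highest quintile -0.73 and -1.54. Longer 5′ UTRs hold more such triplets. Among UTRs of like length the medians without and with one were 0.26 and -0.17 in the second quintile of length, 0.34 and -0.26 in the third, 0.33 and -0.26 in the fourth and 0.26 and -0.38 in the longest, while in the shortest quintile they were 0.04 and 0.01. In that quintile replicate 4 alone had the other order, 0.05 without and 0.08 with one. These medians across genes carry no test, and the upstream triplets and the start context below were examined after other results of these data had been seen.

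**Figure D5:**
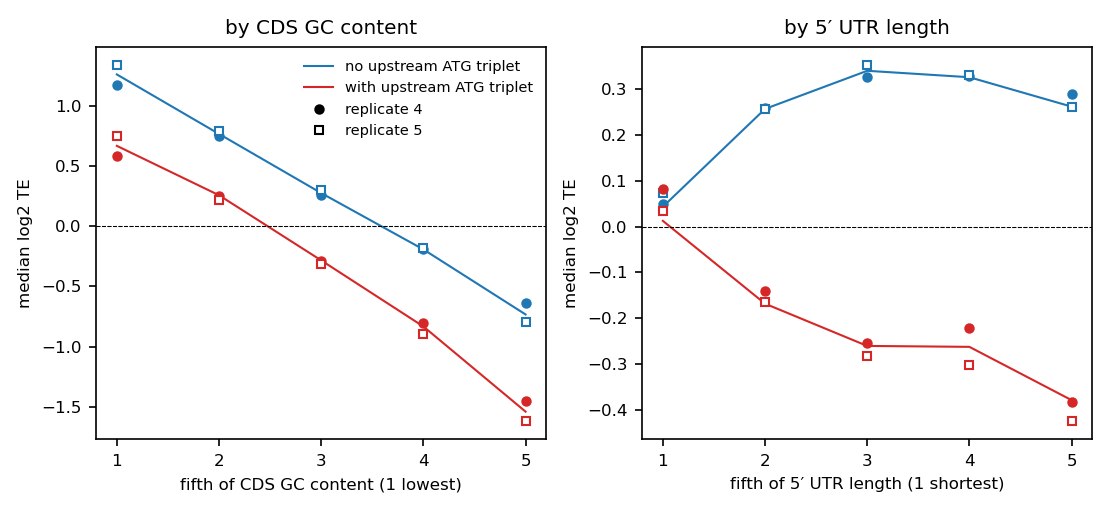
Median log2 TE (y axis) by quintile of CDS GC content (left) and by quintile of 5′ UTR length (right), for transcripts without (blue) and with (red) an upstream ATG triplet, with lines for the fitted values, filled circles for replicate 4 and open squares for replicate 5. The red line lies below the blue one in each quintile, by 0.03 in the shortest quintile of UTR length, where the order is the other way round in replicate 4, and by more in all others.

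Other features moved less. The median log2 TE fell from 0.16 in the second quintile of 5′ UTR length to -0.26 in the longest, where the UTR has a median of 414 bases. By 3′ UTR length it was -0.10 in the shortest quintile and 0.35 in the longest, a quintile whose CDS GC was also the lowest at a median of 49.3%. The start codon context showed a step: with a purine 3 bases before the ATG the median was 0.07 with a G after the ATG (n = 4566) and 0.08 without (n = 4013), and with no purine it was -0.35 (n = 761) and -0.28 (n = 697).

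Libraries that share none with these 4 gave a close ranking of TE. In the 4 libraries of cells given 1.5 μM PF-06446846, 8671 of the 8724 transcripts called in vehicle and tested in both had the same direction (99.4%). Of the 8724, 8143 were called there in that direction, beside 77.3% of 11689 called in those libraries in either direction. Of 4631 that met the stricter call in vehicle, 3991 met it there in the same direction (86.2%). Over all 11689 the stricter call was met there by 16.4% for higher and 21.2% for lower TE. The SD of the difference in log2 TE was 0.215 over transcripts with 50 reads or more in vehicle. A test of the difference itself, the interaction of assay and treatment over 8 libraries, called 4 of 11799 transcripts (0.0339%), all lower with compound. Without adjustment 357 passed 0.05, and blocking on the replicate number gave 13 calls. With the 3 vehicle ribo-seq libraries of the first study in place of ribo-seq replicates 4 and 5, which leaves the same mRNA-seq libraries as the denominator, 2128 transcripts met the stricter call for higher TE and 2710 for lower.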

How the data were processed

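Ribosome footprints and fragmented poly(A) RNA from the same Huh7 samples were sequenced. As the authors describe, adapters were removed, rRNA reads were discarded, and reads were aligned with Bowtie 1.1.2 to 1 isoform a gene of GRCh38, the most abundant one by kallisto 0.42.5, a read with several equally good sites counting at each. The deposited values are raw counts of reads at each inferred P-site codon. They were summed here per transcript over the whole CDS, and no other scaling had been applied. Transcripts were named from GENCODE 44 (11270 of 12325) or the study's own list (228), and 827 stayed unnamed.

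TE is the ribo-seq against mRNA-seq coefficient of edgeR 4.0.16 (TMM, filterByExpr, quasi-likelihood F-test, Benjamini-Hochberg FDR 0.1) over the 4 vehicle libraries. The same fit was made on the compound-treated libraries, and the interaction of assay and treatment over all 8. Depth ran from 8888459 to 22036358 CDS reads a library, and any interval of counts covers counting error only. In simulated counts with 200 of 11670 transcripts changed by a log2 TE of 1, 82% were recovered and 6.82% of calls were false. Most transcripts were unchanged in those counts, while 74.6% of tested transcripts were called in the data. The false share therefore cannot be carried over to the reported calls. Replicates of an assay differed by more than sampling noise (chi-square per transcript 4.58 in ribo-seq and 18.3 in mRNA-seq), so the libraries were not copies of each other. Footprint and mRNA libraries of 1 number came from the same sample, and their deviations from the group means correlated at 0.12 across 10674 transcripts.

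The members, the gene lists and the features were chosen with earlier results of these data known, so a list is described by its counts and its median and not tested. Genes were named by rule: every tested member of 5 short lists, the 2 highest and 2 lowest members with at least 50 reads of each other list, the 10 highest and 10 lowest transcripts over all and again outside histone and mitochondrially encoded genes, the 10 transcripts with the most mRNA reads per codon, marker genes and transcripts past the interaction test. A few genes that this rule takes in are not reported here. Alternatives were another test, scaling, filter, codon window, block and FDR, each library left out, and the ribo-seq libraries of the first study. GC correction, upstream ATG triplets, start context, the removal of 3 gene classes, the 50-read abundance set and the strict TOP position were chosen after seeing the data. Sequence motifs were read from RefSeq (GRCh38.p14) starts and GENCODE 5′ UTRs. Software was R 4.3.3, DESeq2 1.42.0, Python 3.11.15, pandas 2.3.3 and matplotlib 3.10.9.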

Additional observations from a re-analysis of the deposited data

Results flagged for a closer look

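The difference in TE between compound and vehicle was tested as an interaction term (edgeR), which called 4 transcripts, all of which had lower TE with 1.5 μM PF-06446846, and with the replicate number as a block it called 13. BCAP31, an ER membrane protein, changed by -0.83 on the log2 scale, from 0.24 in vehicle to -0.60 with compound (adjusted p = 0.0294). PCBP1, an RNA-binding protein, changed by -1.14, from 0.68 to -0.47 (adjusted p = 0.00128). MDK, the secreted growth factor midkine, changed by -0.75, from -0.10 to -0.85 (adjusted p = 0.0825). SORCS2, a sorting receptor, changed by -1.65, from -0.58 to -2.23 (adjusted p = 0.0864). The call for each rests on 2 libraries an assay and treatment. Groups of 2 libraries are too small for a check of single outlying libraries.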

How the results depend on the processing

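The counts of transcripts with higher or lower TE stayed within 1.5 times under each alternative but 1. With at least 100 reads asked of every library, 1316 transcripts met the stricter call for higher TE and 1304 for lower, from fewer transcripts tested. Among transcripts in both fits, the median shift of log2 TE was -0.20 with that filter and -0.17 with library totals without TMM. Under all other settings it was at most 0.012 in size. Of 390 list medians under alternatives, 8 crossed the median of all transcripts: immediate early factors without ribo-seq replicate 4 (0.10 from it) and without mRNA-seq replicate 5 (0.12), the small subunit with the ribo-seq libraries of the first study (0.08), the large subunit (-0.04) and ZNF genes (0.12) with 100 reads, and the large subunit (-0.06), immediate early factors (0.69) and cyclins (-0.21) relative to like GC.

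The difference between the longest coding sequences and those from 100 to under 200 codons ranged from -0.10 to 0.059 with 1 library left out, beside -0.01 over all 4, and was -0.074 without the CDS ends, -0.29 with the ribo-seq libraries of the first study and -0.23 relative to like GC. The difference between the outer quintiles of 5′ UTR length (-0.27) ranged from -0.30 to -0.24 with 1 library left out and was -0.35 with the first study. That for 3′ UTR length (0.45) ranged from 0.45 to 0.49 and was 0.46 without the CDS ends and 0.47 with the first study. The GC difference of -1.97 stayed between -2.16 and -1.81. The outer deciles of abundance differed by 0.14 as the mean of 2 splits of unlike sign, 0.34 without ribo-seq replicate 4 and -0.063 without ribo-seq replicate 5. Over transcripts with 50 reads or more, a set chosen by footprints as well as mRNA reads, they differed by -0.56. The set of all tested transcripts can also take in a scarce mRNA by its footprints alone. No split can be made without an mRNA library. The TOP motif at the start base itself was in 65.2% of ribosomal protein genes and 5.57% of all. The interaction test called 4 transcripts, 13 with the replicate block and 11 with DESeq2. The cause of these shifts was not tested.

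Of 1890 values of 147 named genes under alternatives, 1824 kept direction and side of the threshold. The block, which pairs libraries of the same sample, changed the call of AHSG alone. Values that changed sign belonged to genes near 0: TPT1 (-0.10 without the CDS ends, -0.12 with library totals, -0.16 with 100 reads), PPP1R15B (-0.25 with the first study, -0.022 with library totals, -0.055 with 100 reads), EEF2K (-0.021) and MDM2 (0.061) with the first study, and APOA1 (0.0048 without ribo-seq replicate 4, 0.012 without mRNA-seq replicate 5, 0.24 with the first study). With library totals EIF5A, EEF1D, RACK1, APOA2, TTR and BCAP31 were no longer called, and AMD1, APOA1 and MDK were called lower. MDK was also called lower with the first study (-0.59, adjusted p = 0.00105) and with 100 reads (-0.30, 0.0105), where BCAP31 was not called (0.04, 0.687). AHSG moved most, to 2.15 with the first study. Genes with fewer than 50 reads, such as OAZ3, cannot be placed precisely at this depth.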
